A study of Mus musculus with 6 samples.

Results

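The 7 genes described here encode subunits of the receptors for GABA, the main inhibitory transmitter of the brain, and were chosen by their symbols from the 55367 of the deposited expression table. They are the GABA-A subunit genes Gabra2, Gabra4, Gabrb1, Gabrb2 and Gabrg1 and both GABA-B subunit genes, Gabbr1 and Gabbr2, and all 7 were found in the table. RNA was measured by Smart-seq2, which copies polyadenylated RNA along its full length, in 6 libraries of tdTomato-positive neurons sorted from the hippocampal dentate gyrus (DG). All the mice were TRAP2;Ai9, so that a tamoxifen-inducible Cre under the control of Fos turned on the tdTomato reporter for good in cells active while the drug was present, and all had been through learned helplessness, a procedure in which stress that cannot be escaped makes animals stop trying to escape. The LH+ NR group (NR, 3 libraries) had no running and the LH+ Run group (Run, 3 libraries) had 28 days of voluntary running. The animals' age and the number of animals and cells behind a library are not given in the sources used here, and nothing says that replicates came from separate mice, so the p-values speak only of how much these libraries vary, which may be technical variation.

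GABA-A receptors are chloride channels built of 5 subunits, as a rule a pair of alpha, a pair of beta and a single gamma or delta subunit, and the subunits chosen set where the receptor sits and which drugs and steroids act on it. Receptors with a gamma subunit mostly serve fast synaptic inhibition, while those of the alpha-4 subunit with delta lie outside synapses and give the steady inhibition for which granule cells of the dentate gyrus are known. GABA-B receptors are instead coupled to G proteins and work only as a pair of Gabbr1, which binds GABA, and Gabbr2, which passes the signal on. Several of these genes, Gabrg1 and Gabrb1 among them, are also known to be transcribed in astrocytes.

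Of the 7 genes, 4 lie together on chromosome 5, in an order typical of GABA-A gene clusters. In mm10 with the GENCODE M21 annotation, Gabrg1 spans 70751047 to 70842617, Gabra2 70957597 to 71095849 and Gabra4 71569749 to 71658308, all on the minus strand, and Gabrb1 spans 71658113 to 72149037 on the plus strand. Gabrb2 lies in another such cluster on chromosome 11 (42419757 to 42629028, plus strand). Gabbr1 lies on chromosome 17 (37045966 to 37075067, plus strand) and Gabbr2 on chromosome 4 (46662305 to 46991873, minus strand). All 7 are annotated as protein-coding.

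**Figure D1:**
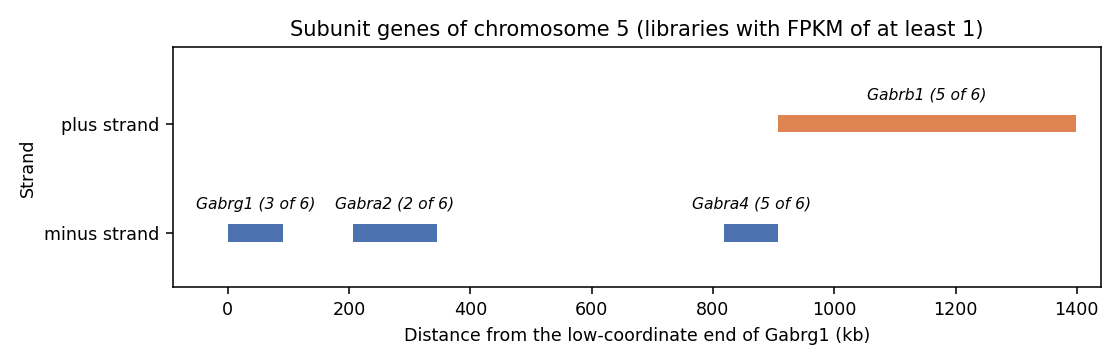
Bars show the extent of the chromosome 5 subunit genes in kilobases from the low-coordinate end of Gabrg1, by strand, with the number of the 6 libraries in which each gene reached an FPKM of at least 1. Gabra4 and Gabrb1, which start side by side on opposite strands, were each found in 5 libraries, Gabrg1 in 3 and Gabra2 in 2.

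Gabra4 and Gabrb1 were found in more libraries than any other of the 7 genes, and they start head to head, so their start regions are shown. RefSeq places the start of Gabra4 at 71658308 and that of Gabrb1 at 71657921, so that each gene runs through the start of the other over 388 bases. The sequences below are the windows from 250 bases before the RefSeq start to 50 bases after it, each read 5′ to 3′ on its gene's own strand (GRCm38.p6), chr5:71658259-71658558 for Gabra4 and chr5:71657671-71657970 for the first of 2 annotated starts of Gabrb1. Capitals mark the GC box GGGCGG on either strand.
Gabra4: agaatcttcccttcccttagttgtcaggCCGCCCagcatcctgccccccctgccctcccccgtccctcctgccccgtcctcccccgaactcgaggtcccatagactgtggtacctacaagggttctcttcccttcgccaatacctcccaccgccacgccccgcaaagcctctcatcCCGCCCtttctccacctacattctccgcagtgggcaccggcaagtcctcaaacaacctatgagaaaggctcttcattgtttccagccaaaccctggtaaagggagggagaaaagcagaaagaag
Gabrb1: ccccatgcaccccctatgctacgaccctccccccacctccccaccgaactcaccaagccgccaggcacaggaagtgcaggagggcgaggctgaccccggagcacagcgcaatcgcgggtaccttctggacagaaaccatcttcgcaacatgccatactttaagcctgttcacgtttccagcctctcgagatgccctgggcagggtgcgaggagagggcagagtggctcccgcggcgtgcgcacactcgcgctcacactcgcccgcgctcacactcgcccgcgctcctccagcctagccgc
The Gabra4 window held 2 GC boxes and the Gabrb1 window none, where 35.7% of 32851 RefSeq windows of this length hold at least 1. Neither held the CRE TGACGTCA (1.79% of all windows), the AP-1 motif TGANTCA (7.81%), the E box CACGTG (7.15%) or the TATA box TATAAA (13.6%), searched on both strands. GC content was 58.7% for Gabra4 and 66.0% for Gabrb1, with 12 and 25 CpG dinucleotides, against medians of 52.7% and 7 over all windows. By contrast, the Gabrg1 window had 38.3% GC and 3 CpG, and that of Gabbr2 80.3% and 46. A motif match is a description of the letters, and all 7 genes matched the table of windows.

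Values are given as FPKM, in which the fragments of a gene are divided by its transcript length and by library size, and which can be compared between genes. FPKM holds no read totals, so the depth behind a value is unknown and no interval can be put on a single one. The libraries summed to between 473786 and 492021 FPKM, and 5426 to 7355 genes reached an FPKM of 1, the most in NR replicate 2. Of 12 genes that every cell uses, 2 (Tbp and Polr2a) were listed at 0 in at least 1 library, so an FPKM of 0 may be a failed estimate, and a subunit gene is said only to be listed at 0. Markers checked the label. Of 10 granule neuron markers none reached FPKM 1 in all 6 libraries and C1ql3, Trpc6 and Tdo2 were listed at 0 throughout. Their summed FPKM ran from 36.1 to 158 in NR and from 46.5 to 176 in Run. Of 10 markers shared by all neurons, 3 (Snap25, Tubb3 and Map2) reached FPKM 1 in every library, and their sum ran from 273 to 906 and from 634 to 1051. Of 12 astrocyte markers, 9 reached FPKM 1 in every library and none was listed at 0 throughout, with sums of 2566 to 4826 in NR and 2796 to 5490 in Run. Markers of other classes were found as well. Of 10 endothelial markers, 4 reached FPKM 1 in every library, with sums of 913 to 2434 in NR and 850 to 1763 in Run. Mural markers (3 of 10 in every library, 3 listed at 0 throughout) summed to 499 to 1444 and 317 to 743, oligodendrocyte markers (3 of 10) to 257 to 1545 and 183 to 998, and microglia markers (1 of 10) to 55.0 to 572 and 179 to 927. For each of these classes the NR and Run ranges overlapped. The highest sum was above the highest of the markers shared by all neurons for all but microglia, but these maxima came from different libraries. In NR replicate 1, mural markers summed to 1444, of which Acta2 gave 1015, against 273 for the markers shared by all neurons. In Run replicate 1, endothelial, mural and oligodendrocyte markers summed to 850, 724 and 183, against 1051. The part of RNA from any of these cell types in the values below was not tested. Fewer cells of a type and less RNA per cell cannot be told apart in these libraries.

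The subunit genes were found in patches. Of the 42 values (7 genes in 6 libraries), 22 were at FPKM of at least 1, with a median of 11.99 and a highest value of 38.0, 18 were listed at 0 and only 2 lay in between. No gene of the 7 was found in all 6 libraries. In NR, 12 of 21 values reached FPKM 1, and in Run 10 of 21. NR replicate 2 had all 7 genes, while each other library had 2 to 4 of them. Without NR replicate 2, which also had the most genes of any kind, 5 of 14 NR values reached FPKM 1. Patchy detection was common at these levels: of 6841 genes whose mean over the 6 libraries lay between those of Gabra2 (1.35, the lowest of the 7) and Gabrg1 (14.9, the highest), 65.5% reached FPKM 1 in 1 or 2 libraries, 23.8% in 3 or 4 and 10.7% in 5 or 6.

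**Figure D2:**
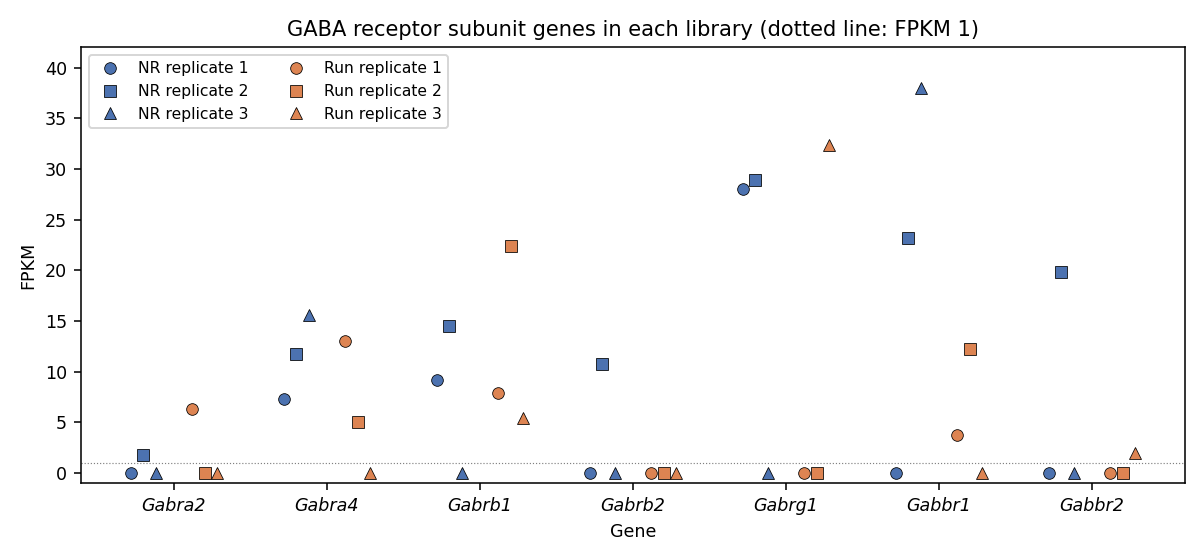
Points show the FPKM of each of the 7 genes in each library, NR in blue and Run in orange, with the replicate number given by the marker shape and FPKM 1 by the dotted line. For Gabra4 and Gabrb1, 5 of 6 points lie above the line, and for Gabrb2 only NR replicate 2 does.

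Alpha subunits carry, with beta, the GABA binding site. Values are in replicate order here and below. Gabra4, an alpha subunit of extrasynaptic receptors, had 7.29, 11.7 and 15.6 FPKM in the NR libraries, against 13.0, 5.06 and 0 in Run. It was the only one of the 7 genes found in all 3 libraries of NR, with Run replicate 1 inside the NR range and the other Run libraries below it. Gabra2, an alpha subunit of synaptic receptors known for its role in the calming action of benzodiazepines, had 0, 1.77 and 0 in NR, against 6.34, 0.00544 and 0 in Run. It thus rested on 1 library in each group, and the groups overlapped.

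Beta subunits complete the binding site and anchor the channel. Gabrb1 had 9.15, 14.5 and 0 FPKM in NR, against 7.90, 22.4 and 5.41 in Run. It was the only one of the 7 found in all 3 Run libraries, and Run replicate 2 was the highest of all. Gabrb2, a beta subunit widespread in the adult brain, had 0, 10.7 and 0 in NR and was listed at 0 in all 3 Run libraries. Gabra4 and Gabrb1 were found together in 4 libraries, and each stood alone in 1: Gabra4 in NR replicate 3, where Gabrb1 was listed at 0, and Gabrb1 in Run replicate 3, where Gabra4 was. The GENCODE models of these neighbours overlap over 196 bases (71658113 to 71658308), of which 46 are exonic in both, or 0.756% of the exonic bases of Gabra4 and 0.332% of those of Gabrb1. Smart-seq2 does not mark the strand, so reads from those bases cannot be told apart. Of 3 other annotated genes inside Gabrb1, the antisense gene Gm38562 and the pseudogene Gm15617, both on the opposite strand, were listed at 0 in all 6 libraries. Gm15616, a processed pseudogene on the same strand, had 1.18, 0.611 and 0.534 in NR, against 1.10, 0.142 and 0.384 in Run, and so was above 0 also in NR replicate 3, where Gabrb1 was not.

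Gabrg1, a gamma subunit with a narrow expression in the brain, had the highest mean of the 7 and the sharpest contrast between libraries. It had 28.1, 28.9 and 0 FPKM in NR, against 0.0145, 0 and 32.3 in Run. The 3 libraries in which it was found, 2 of them NR and 1 Run, lay close together, and the other 3 were at or near 0. The sums of astrocyte markers overlapped between these sets of libraries, at 4826, 2566 and 2796 in the 3 libraries with Gabrg1 and 4011, 2865 and 5490 in the 3 without. Aldoc and Gfap made up most of each sum, and the sets were split by the values of Gabrg1 itself. The source of the Gabrg1 RNA was not tested.

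The GABA-B pair was found together only once. Gabbr1 had 0, 23.1 and 38.0 FPKM in NR, against 3.72, 12.2 and 0 in Run, so that each group had 1 library at 0 and the 2 highest values were in NR. Gabbr2, its obligate partner, had 0, 19.8 and 0 in NR, against 0, 0 and 1.99 in Run. Both reached FPKM 1 in NR replicate 2 alone, Gabbr1 without Gabbr2 in 3 libraries, and Gabbr2 without Gabbr1 in Run replicate 3. NR replicate 1 had neither.

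By mean FPKM over the 6 libraries the order was Gabrg1 (14.9), Gabbr1 (12.8), Gabrb1 (9.90), Gabra4 (8.78), Gabbr2 (3.64), Gabrb2 (1.79) and Gabra2 (1.35). Each neighbouring pair in this order overlapped over the libraries, and by the median the order was another, with Gabrg1 (14.0) followed by Gabra4 (9.51), Gabrb1 (8.53) and Gabbr1 (7.98), and the other 3 at or near 0.

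The comparison of Run with NR asked whether these genes differed between the 2 groups of libraries. Markers of other cell types were found in the same libraries, so a difference could not be assigned to the labelled neurons. Of the 7, 4 (Gabra4, Gabrb1, Gabrg1 and Gabbr1) reached FPKM 1 in at least 3 libraries and were tested. Differences are Run minus NR on the scale log2(FPKM + 1), which understates changes of low values. None of the 4 passed an adjusted p of 0.05 by limma, where 0 of all 6155 tested genes (0%) passed and 304 (4.94%) had an unadjusted p under 0.05. Gabra4 had a log2 difference of -1.45 ± 1.41 (SE), with a 95% interval of -4.80 to 1.89. That of Gabrg1 was -1.56 ± 2.05 (-6.40 to 3.28), and that of Gabbr1 -1.30 ± 1.84 (-5.66 to 3.05). Gabrb1 alone was positive, at 1.03 ± 1.51 (-2.54 to 4.60). Each of the 4 had a limma adjusted p = 0.978 over all tested genes. The intervals reach beyond a 4-fold change (2 on the log2 scale) in at least 1 direction for each gene, so these libraries do not show that the genes were alike in the 2 groups. No gene of the 4 had groups that did not overlap, which 551 of the 6155 tested genes (8.95%) had. Each of the 4 differences moved by over 1.5 times with single libraries. The direction of Gabrb1 rested on NR replicate 3: without it the difference was -0.19, while it was 1.79 without NR replicate 2 and 0.48 without Run replicate 2. That of Gabra4 was -0.39 without Run replicate 3 and -2.29 without Run replicate 1. That of Gabrg1 was -3.19 without NR replicate 3 and -3.24 without Run replicate 3, and between -0.76 and -0.71 without any one of the other 4 libraries. That of Gabbr1 was -2.95 without NR replicate 1, -2.17 without Run replicate 2, -0.65 without NR replicate 2, and -0.31 without NR replicate 3 or without Run replicate 3.

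**Figure D3:**
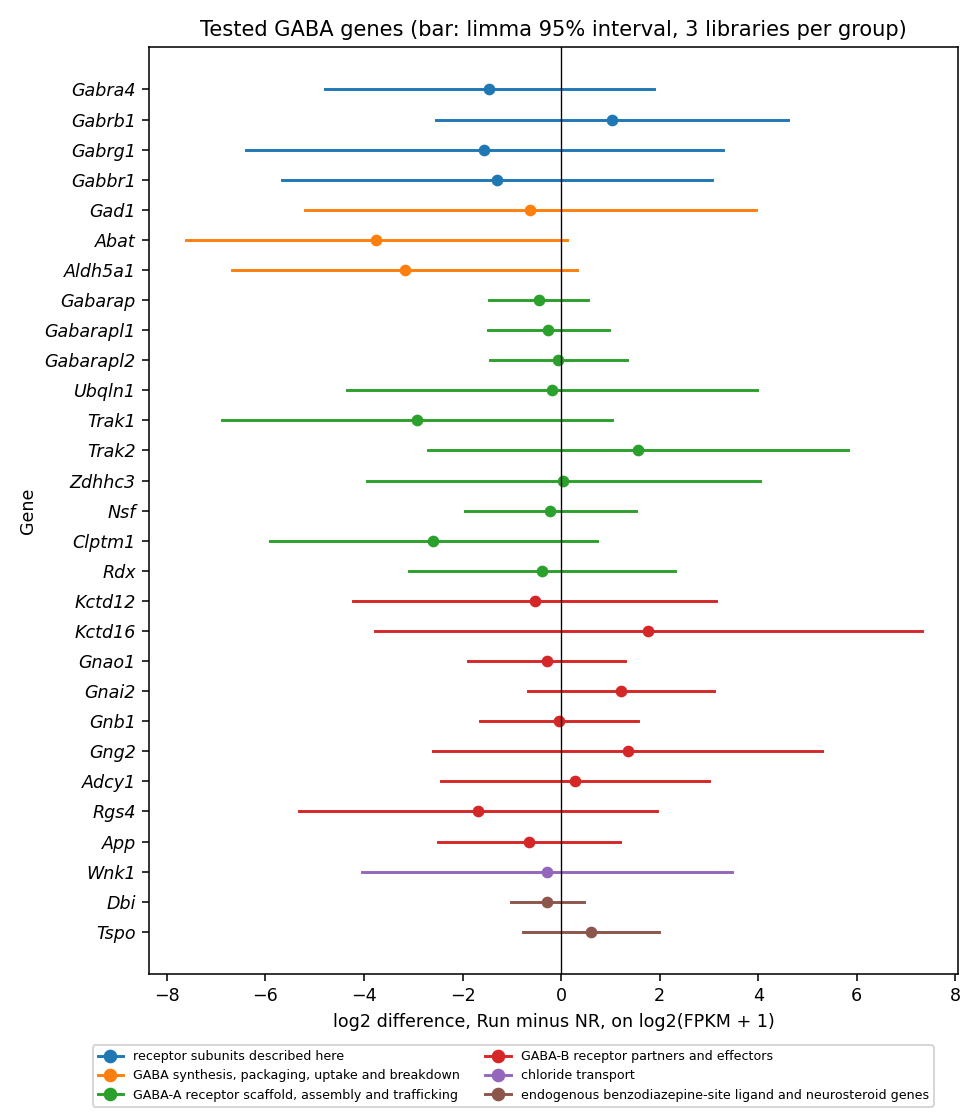
Points show the log2 difference (NR subtracted from Run, both as log2(FPKM + 1)) of each tested GABA gene, with bars for the 95% interval of limma over 3 libraries per group and colours for the gene lists. All intervals span 0, and those of abundant genes such as Dbi and Gabarap are the narrowest.

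Of 11 other GABA-A subunit genes read beside them, 2 reached FPKM 1 in at least 1 library, none was tested, and 8 were listed at 0 in all 6. Such absence was common: 9 of the 11 stayed below FPKM 1 in all 6 libraries, and so did 42583 of the 55367 genes of the table. Of all values in the table, 83.1% were listed at 0. The 8 were Gabra3, Gabra5, Gabra6, Gabrg3, Gabre, Gabrp, Gabrq and Gabrr3, and Gabrr1 had 0.0536 in NR replicate 2 alone. These 9 are named to account for the list. Gabrd, the partner of Gabra4 outside synapses, was found only in Run replicate 1, at 5.13, where Gabra4 had 13.0. Gabrr2, a rho subunit best known from the retina, had 36.1 in NR replicate 2 and 36.7 in Run replicate 3 and was listed at 0 elsewhere. Over the 16 GABA-A genes described here, 10 of 48 values reached FPKM 1 in NR and 9 of 48 in Run, and NR replicate 2 gave 6 of the 10.

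**Figure D4:**
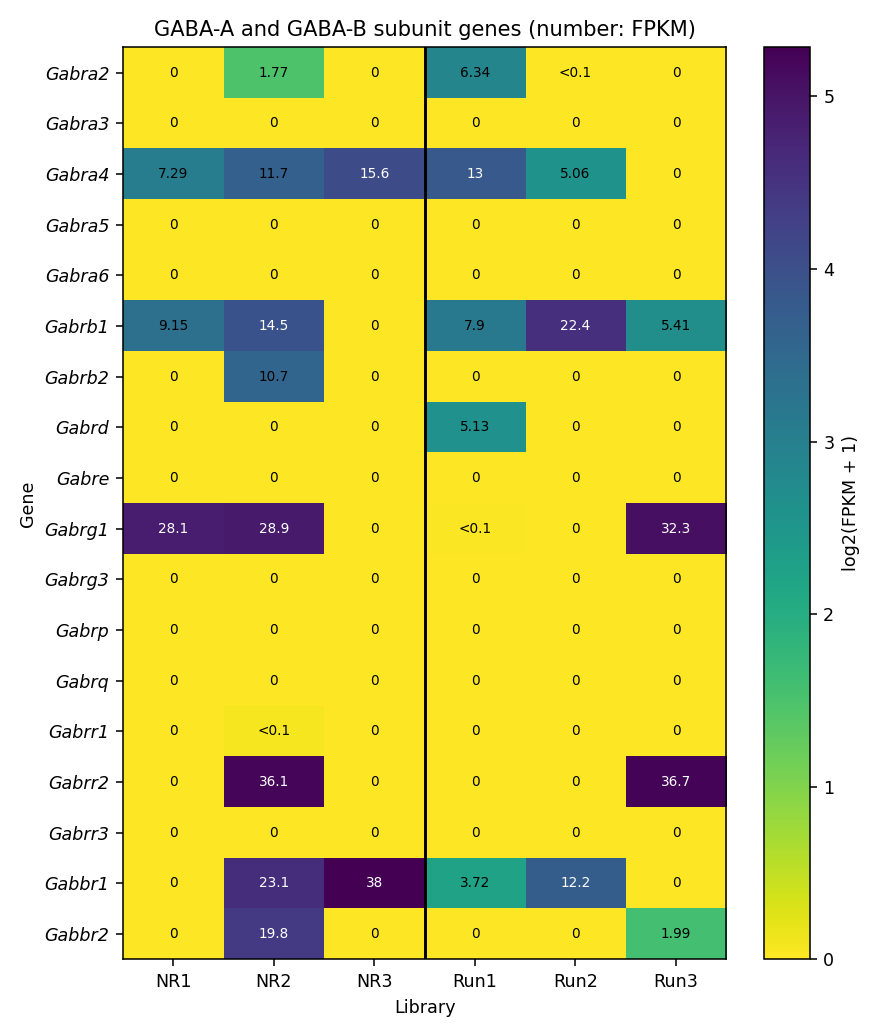
Colour gives log2(FPKM + 1) and the printed number the FPKM of each GABA-A and GABA-B subunit gene (rows) in each library (columns), with a line between NR and Run. NR replicate 2 has the most fields above 0, and Gabra4 is above 0 in all 3 NR libraries.

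Genes that make, pack, take up and break down GABA were read beside the receptors. Of 8 analysed, 3 were tested, none passed, and all 3 differences were negative (median -3.17, against -0.03 over all tested genes). Abat, the transaminase that starts the breakdown of GABA, had 41.7, 43.0 and 39.5 FPKM in NR, against 29.7, 0.00747 and 0.0125 in Run. Aldh5a1, the enzyme of the next step, had 56.9, 21.4 and 31.3 in NR, against 0.00973, 20.7 and 1.62 in Run. For both, each Run value lay below each NR value, as for 258 of the 6155 tested genes (4.19%). The log2 differences were -3.75 ± 1.63 and -3.17 ± 1.48 (SE), each with a limma adjusted p = 0.978. Gad1, which makes GABA, had 43.4, 1.38 and 31.9 in NR, against 46.4, 19.2 and 0 in Run. Slc32a1, the vesicular transporter that defines GABA-releasing neurons, was listed at 0 in all 6, as were the transporter genes Slc6a12 and Slc6a13. These 3 were picked once their values were known. Of 12 interneuron markers, Slc32a1 among them, 6 were listed at 0 throughout and none reached FPKM 1 in every library. Their sums ran from 43.4 to 74.4 in NR and from 24.6 to 173 in Run. Vip alone gave 156 of the 173, in Run replicate 3, and stayed below FPKM 1 in every other library. Only 2 of the 12 markers, Gad1 and Dlx1, were tested. Dlx1 had 0, 50.7 and 42.5 in NR, against 17.6, 0 and 17.0 in Run. Whether GABA-releasing neurons were among the cells was not tested.

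Of 17 genes of GABA-A receptor anchoring, assembly and traffic, 10 were tested, none passed, and 8 differences were negative (median -0.24). Gabarap, which binds gamma subunits and also serves autophagy, was found in every library, at 257, 224 and 281 FPKM in NR, against 225, 129 and 216 in Run (log2 difference -0.45 ± 0.42 SE), and its relative Gabarapl1 had 159, 166 and 207 in NR, against 92.2, 239 and 143 in Run. Clptm1, which holds subunits back in the endoplasmic reticulum, had 26.8, 23.6 and 0.00845 in NR, against 1.02, 0.546 and 0 in Run. Trak1, an adaptor for transport along microtubules, had 32.9, 3.48 and 43.8 in NR, against 14.3, 0 and 0.0187 in Run. The groups overlapped for each of these. Gphn, the scaffold gephyrin of inhibitory synapses, reached at most 0.0302 in any library. This gene was picked once its values were known.

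Of 16 partners and effectors of GABA-B receptors, 9 were tested, none passed, and 4 differences were positive and 5 negative (median -0.05). Gnai2, an inhibitory G protein subunit, had 16.6, 40.2 and 83.5 FPKM in NR, against 71.3, 124 and 84.7 in Run, and its log2 difference of 1.22 ± 0.80 (SE) had a limma adjusted p = 0.978. Gnb1, a G protein beta subunit, had 342, 129 and 165 in NR, against 308, 81.0 and 263 in Run. Rgs4, which shortens G protein signals, had 18.1, 29.1 and 37.7 in NR, against 0.0133, 22.3 and 26.7 in Run. App, whose product binds Gabbr1, had 73.6, 104 and 43.1 in NR, against 35.9, 26.3 and 87.7 in Run. Kctd12, an auxiliary subunit picked once its values were known, had 0, 11.9 and 13.8 in NR, against 3.78, 11.9 and 0.00627 in Run, above FPKM 1 in the same 4 libraries as Gabbr1. The other Kctd genes of the list, also picked so, differed. Kctd16 had 0, 0.0376 and 60.7 in NR, against 55.5, 43.6 and 0 in Run, and Kctd8 and Kctd12b were listed at 0 in all 6. How many genes of the table were found in those same 4 libraries was not counted.

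Over all GABA lists, the 7 genes included, 29 of 75 genes analysed were tested, 21 with negative and 8 with positive differences (72.4% negative, against 51.1% of all tested genes), and 0 passed by limma. The median was -0.28. The negative share was 72.4% also after quantile normalization (against 49.4% of all tested genes) and after scaling each library to the same sum (51.6%). With no filter on low values it was 59.6% (against 50.8%). It was 58.6% without Run replicate 2 (against 48.8%) and 55.2% without NR replicate 1 (against 52.3%). It was higher without NR replicate 3 (79.3%, against 52.1%) and when a gene had to reach FPKM 1 in every library (81.8% of 11, against 47.8% of all genes so tested). Over all the alternatives it ran from 55.2% to 81.8%. Scaling could change little, as the library sums already lay between 473786 and 492021 FPKM. The lists were chosen with earlier results of these data known, so the negative share is a description and was not tested. Groups that did not overlap were seen for 2 of the 29 (6.90%), against 8.95% of all tested genes.

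For each tested gene of the 7, the tested genes with the most similar profile over the 6 libraries were sought by the root mean square difference of log2(FPKM + 1) values, each profile being centred on its own mean. Nearest to Gabra4 was Ube2h, a ubiquitin-conjugating enzyme gene, at 0.16 log2 units, with 5.34, 9.26 and 13.1 FPKM in NR, against 13.3, 4.67 and 0.0181 in Run, followed by Tcf25 (0.29). Nearest to Gabrb1 were Bnip3l, a receptor for the removal of mitochondria (0.38), and Camta2 (0.46). Nearest to Gabrg1 were Plekha2 (0.24), at 17.4, 26.5 and 0.00841 in NR, against 0, 0 and 25.3 in Run, and 9430038I01Rik (0.29). Nearest to Gabbr1 were Fam171b (0.42) and Bloc1s6, a gene of lysosome-related organelle assembly (0.52). The profiles themselves spread by 1.37 to 2.47 log2 units (root mean square about their mean). With 6 libraries and 6155 genes to choose from, such likeness describes these libraries only.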

How the data were processed

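RNA of 6 Smart-seq2 libraries (3 NR, 3 Run, all placed in 1 batch by the labels) was available as 1 table of FPKM values that the authors made and deposited, with 1 column per library, assigned to groups and replicates by the sample titles. The submitters' processing notes name Trimmomatic 0.39, STAR 2.7.5c, StringTie 2.1.7, DESeq2, edgeR and the build mm10. Their roles and the annotation are not given in the sources used here. Of the symbols, 53289 (96.2%) matched GENCODE M21. Low FPKM times transcript length gave no step that turned them into whole reads (at most 8.13% of low values lay within 2% of a whole multiple), so no count test was run.

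Values were tested as log2(FPKM + 1) with limma 3.58.1 in R 4.3.3 (mean-variance trend, 2-sided) over the 6155 genes that reached FPKM 1 in 3 or more libraries, with Benjamini-Hochberg adjustment and a threshold of 0.05. The fit was run on simulated data. It was required to recover the set changes only at a spread below that of the tested genes of the 7. Recovery at their own spread is not given here. Lists are given by counts and medians, without a test. The 7 genes and the lists were chosen with earlier results of these data known. Some genes of these lists are not reported here. Genes named were the 7, other GABA-A subunits at FPKM of at least 1 anywhere, the 3 smallest p and 2 highest means of each other list, and the 2 most similar profiles per tested gene. Genes named outside this rule are the remaining GABA-A subunits, genes inside Gabrb1, cell type markers, genes that every cell uses, and those said to be picked once their values were known. Promoter windows came from RefSeq (GRCm38.p6). Tables and plots used Python 3.11.15, numpy 2.4.6, pandas 2.3.3 and matplotlib 3.10.9. Alternatives were pseudocounts of 0.1 and 5, no filter, FPKM of at least 1 in all 6 libraries, 2 scalings, a replicate block, no trend and leaving out each library.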

Additional observations from a re-analysis of the deposited data

How the results depend on the processing

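No gene of the whole table and no GABA gene passed the adjusted threshold under any of the 14 alternatives, while the number of genes at an unadjusted p under 0.05 ran from 82 to 404. Gabra4, Gabrg1 and Gabbr1 kept a negative difference and an adjusted p above the threshold in all 13 alternatives that could be computed for them, with adjusted p-values from 0.712 to 1.00. None of the 7 genes reached FPKM 1 in all 6 libraries, so that filter gave no value for them. Under the changes of pseudocount, filter, scaling and trend, the difference ran from -2.55 to -0.74 for Gabra4, from -2.59 to -0.86 for Gabrg1, from -1.41 to -1.003 for Gabbr1 and from 0.47 to 2.07 for Gabrb1. Leaving out 1 library at a time gave -2.29 to -0.39 for Gabra4, -3.24 to -0.71 for Gabrg1, -2.95 to -0.31 for Gabbr1 and -0.19 to 1.79 for Gabrb1, which was reversed without NR replicate 3, the library in which it was listed at 0. With the replicate number as a block, the differences were unchanged by construction (-1.45 for Gabra4, 1.03 for Gabrb1) and 0 genes passed, with 251 in place of 304 at an unadjusted p under 0.05. Same-numbered libraries shared deviations with correlations of 0.0211, 0.00416 and 0.0179 for replicates 1, 2 and 3, so the numbers are not taken to pair the samples, although each library correlated best with its own number. With no filter, the untested Gabra2, Gabrb2 and Gabbr2 had log2 differences of 0.47, -1.18 and -0.93 and limma adjusted p-values of 0.925, 0.712 and 0.869. Depth is unknown, and the spread between 3 libraries limits every comparison.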

Other observations

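The chloride gradient that decides whether GABA-A receptors inhibit depends on other genes. Of 9 listed, 3 stayed below FPKM 1 in all 6 libraries, against 42583 of the 55367 genes of the whole table. Only 1 was tested, against 6155 of the 55367. Slc12a5, the chloride exporter of mature neurons, was listed at 0 in all 6 libraries, as were Wnk3 and Stk39. These 3 were picked once their values were known. Slc12a2, the chloride importer, had 44.7, 0 and 5.73 FPKM in NR, against 0.00748, 0.990 and 0.954 in Run. Wnk1, a kinase that controls both transporters, had 10.95, 30.0 and 0 in NR, against 8.54, 2.62 and 5.02 in Run. It was the only one of the 9 listed genes that was tested (log2 difference -0.28 ± 1.59 SE, limma adjusted p = 0.989).

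Dbi, which encodes a peptide that binds the benzodiazepine site of GABA-A receptors and also carries acyl-CoA, was the most abundant gene of all the GABA lists. It had 3446, 1516 and 2846 FPKM in NR, against 2051, 1907 and 2139 in Run. Its log2 difference was -0.28 ± 0.31 (SE, 95% interval -1.01 to 0.45, limma adjusted p = 0.978). Tspo, the mitochondrial protein that binds the same peptide, had 98.4, 169 and 58.9 in NR, against 155, 118 and 191 in Run (0.61 ± 0.58 SE, limma adjusted p = 0.978). Both were found in every library, unlike each of the 18 subunit genes described.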
